A study of Caenorhabditis elegans with 2 samples.

Results

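The regions described here were called as bound by FKH-10, a forkhead transcription factor. They lie on the X chromosome close to the start of a protein-coding gene. FKH-10 was mapped in whole Caenorhabditis elegans larvae of the first stage (L1) by ChIP-seq, in which protein-bound DNA is precipitated with an antibody and sequenced. The authors' reproducible set holds 644 regions called as bound (peaks) on X and 1958 on the autosomes. Members are the X peaks whose summit, the position of highest signal, fell between 2000 bp upstream and 500 bp downstream of the annotated start of at least 1 protein-coding gene. There were 274 of them, 10.5% of all peaks of the set and 42.5% of those on X (exact 95% interval 38.7 to 46.5%). The other 370 X peaks, 1053 autosomal peaks chosen by the same window and 905 autosomal peaks outside it are used for comparison.

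All animals were of strain OP337, in which unc119(ed3) is combined with the integrated transgene wgIs377, written fkh-10::TY1 EGFP FLAG with unc119 as its marker. The transgene product is FKH-10 with a GFP and FLAG tag at its C-terminus, and the animals were L1 larvae of both sexes, of unknown age and not treated with any agent the labels name. The samples form 1 group of 2 biological replicates from separate biosamples, with no second strain, stage or untagged group among the values used here. Whole larvae were used, so a peak present in few cells and a weak peak present in many cells cannot be told apart, and 1 transgenic line stands for the factor.

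Forkhead proteins are transcription factors that contact DNA through a winged-helix domain and are best known to bind A- and T-rich sites of the kind that contain GTAAACA. Promoters in C. elegans usually lie within a short distance upstream of genes, and tRNA genes, which carry their promoter inside the gene, are numerous on X. The X chromosome is also special in its regulation. In animals with a pair of X chromosomes, SDC-2 recruits a condensin-like dosage compensation complex to recruitment sites on X, and these sites carry a motif called MEX (motif enriched on X), whose central letters include GCGCAGGG.

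The DNA at the summits of the highest members is shown first, because the letters shared by the highest 3 return in the results below. Each line holds 101 bp, 50 bp to each side of a summit, from the plus strand of the RefSeq copy of WBcel235, whose coordinates are those of ce11. A member is named by the protein-coding gene start nearest to its summit. Capitals mark a searched word on either strand, namely GCGCAGGG or its reverse complement in the lines of F20B6.9, nspc-17 and ins-39, the GATA word TGATAA at fbxb-58 and the GA repeat at eef-1A.2. The lines of puf-9, rpl-11.2 and dpy-23 hold none of the 11 words searched.
F20B6.9, chrX:4209217-4209317: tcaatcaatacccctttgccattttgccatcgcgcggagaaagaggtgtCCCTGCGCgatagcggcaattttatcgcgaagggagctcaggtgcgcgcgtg
nspc-17, chrX:14525849-14525949: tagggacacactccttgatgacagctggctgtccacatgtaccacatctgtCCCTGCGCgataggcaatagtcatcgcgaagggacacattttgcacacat
ins-39, chrX:1344977-1345077: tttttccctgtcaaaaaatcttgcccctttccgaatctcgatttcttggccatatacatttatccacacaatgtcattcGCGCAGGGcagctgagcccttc
fbxb-58, chrX:1627094-1627194: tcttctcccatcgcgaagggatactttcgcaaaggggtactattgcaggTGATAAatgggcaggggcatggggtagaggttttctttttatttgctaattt
puf-9, chrX:5841254-5841354: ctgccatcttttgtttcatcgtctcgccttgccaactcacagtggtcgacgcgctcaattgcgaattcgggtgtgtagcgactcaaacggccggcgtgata
eef-1A.2, chrX:7823197-7823297: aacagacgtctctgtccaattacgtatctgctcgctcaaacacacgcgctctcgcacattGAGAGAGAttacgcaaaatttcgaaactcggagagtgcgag
rpl-11.2, chrX:2242931-2243031: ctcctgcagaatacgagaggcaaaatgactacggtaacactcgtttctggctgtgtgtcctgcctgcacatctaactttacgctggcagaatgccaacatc
dpy-23, chrX:4388991-4389091: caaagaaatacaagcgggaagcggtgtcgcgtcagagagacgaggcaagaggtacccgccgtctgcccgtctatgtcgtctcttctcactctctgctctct

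The lines of F20B6.9, nspc-17 and fbxb-58 also contain gcgaaggg in lower case, which differs from the MEX core in a single letter and was picked out only after these lines had been seen. In the first 2 of these it lies to the right of the capitals. The other 2 members with the MEX core are shown next, since they are far lower in signal, at 61.6 for jkk-1 and 42.1 for Y62H9A.9. The gene jkk-1 encodes a kinase of the JNK pathway.
jkk-1, chrX:5368383-5368483: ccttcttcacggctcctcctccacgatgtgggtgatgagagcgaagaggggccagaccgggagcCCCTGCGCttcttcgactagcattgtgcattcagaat
Y62H9A.9, chrX:11899306-11899406: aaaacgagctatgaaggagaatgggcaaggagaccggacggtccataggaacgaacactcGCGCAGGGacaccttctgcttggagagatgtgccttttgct

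The 3 members with the highest signal were the peaks near F20B6.9, nspc-17 and ins-39. Signal is the authors' value per peak; its scale is not given, so it is used only to rank and describe peaks of one list, and the depth behind it is unknown. Pooled values carry no replicate error, and the spread is therefore given by the values of both replicate lists. The peak near F20B6.9 had a pooled signal of 347, with 185 in replicate 1 and 165 in replicate 2, and lay 1782 bp upstream of the gene start. At nspc-17, a gene of a nematode-specific peptide family, the pooled signal was 319 with 159 and 162 in the replicates, and the summit lay 718 bp upstream. The peak 606 bp upstream of ins-39, which encodes an insulin-like peptide, had 300.05, with 170.25 and 132. In both replicate lists these 3 peaks stood within the first 20 ranks.

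The next members were led by fbxb-58, an F-box gene, with a pooled signal of 254 and replicate values of 134 and 119.2. The peak between puf-9, which encodes a Pumilio-type RNA-binding protein, and dct-11 reached 248 (128 and 119.3). Its summit was 288 bp upstream of puf-9 and 1526 bp upstream of dct-11. After these 5 the signal dropped to 194 at eef-1A.2, a gene for translation elongation factor 1-alpha, where replicate 1 gave 96.1 and replicate 2 gave 99.6. The ribosomal protein gene rpl-11.2 had 182 (91.5 and 91.1), and dpy-23, which encodes a subunit of the AP2 clathrin adaptor, had 171 (90.5 and 82.8). These 8 members ranked between 9 and 78 among all peaks of the set.

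The members from rank 9 to 25 had pooled signals between 126 and 169. They include tmem-184 (169, with 83.1 and 87.5 in the replicates), pqn-39 (163, with 96.5 and 65.0), and lgc-47, a gene of the ligand-gated channel family (155, with 72.5 and 80.8). At F17E5.2 the values were 146 pooled, 67.8 and 72.7. The syndecan gene sdn-1, whose product is a heparan sulfate proteoglycan, had 146 with 70.2 and 75.1. For tbc-16, of the family of Rab GTPase activators, the values were 144 pooled, 83.4 in replicate 1 and 57.8 in replicate 2. The others of this range were ain-1, ZC506.1, rabr-1, wdr-54, apl-1, C14A11.9, sms-2 with arr-1, serp-1.1, spc-1, C28G1.2 with sec-15, and T13C5.6 with mtp-18. Among these, ain-1 encodes a GW182-type partner of Argonaute in miRNA silencing, apl-1 an amyloid precursor-like protein, spc-1 alpha spectrin, arr-1 an arrestin and sec-15 a subunit of the exocyst. The lowest of the 25 was the peak at T13C5.6, with 126 (69.6 and 62.2).

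**Figure D1:**
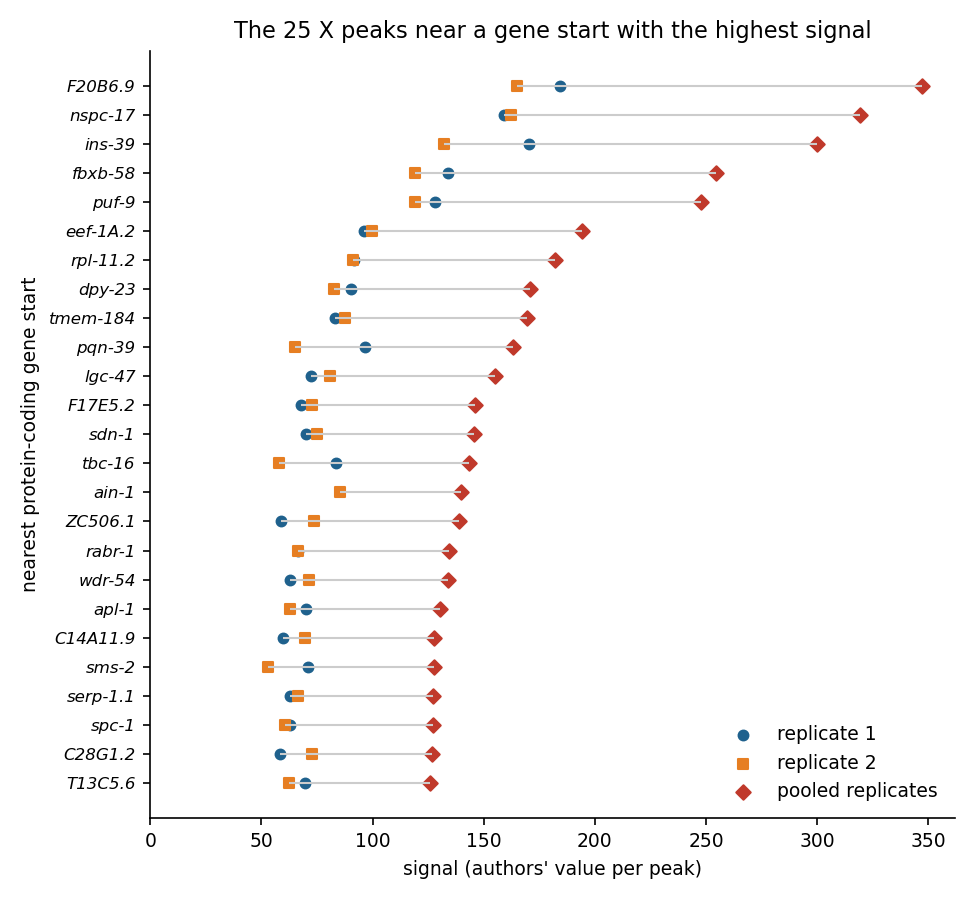
Signal (linear axis) of the 25 members with the highest pooled signal, named by the nearest protein-coding gene start, with the value in each replicate list and in the pooled list; grey lines join the points of a member. The pooled value lies above both replicate values for every one of the 25, and ain-1 has no point for replicate 1 because no peak of that list overlaps it.

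Over all 274 members the pooled signal ran from 37.2 to 347, with a median of 62.6 and quartiles of 48.6 and 88.5. The other X peaks had a median of 65.8, autosomal peaks near gene starts 59.5 and the remaining autosomal peaks 59.7, so the medians of the 4 groups lay within a range far narrower than the quartiles of each. Members made up 3 of the 20 highest peaks of the set, 10 of the 100 highest and 145 of those above the median of the set, or 11.1%, close to their 10.5% of the whole. X peaks outside the window behaved otherwise at the top, with 11 of the 20 highest and 25 of the 100 highest against 14.2% of the whole set. Of the 1521 pooled peaks on X within the window, 274 (18.01%) were in the reproducible set, beside 13.1% of all 19924 pooled peaks; membership in the set is part of how members were chosen.

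**Figure D2:**
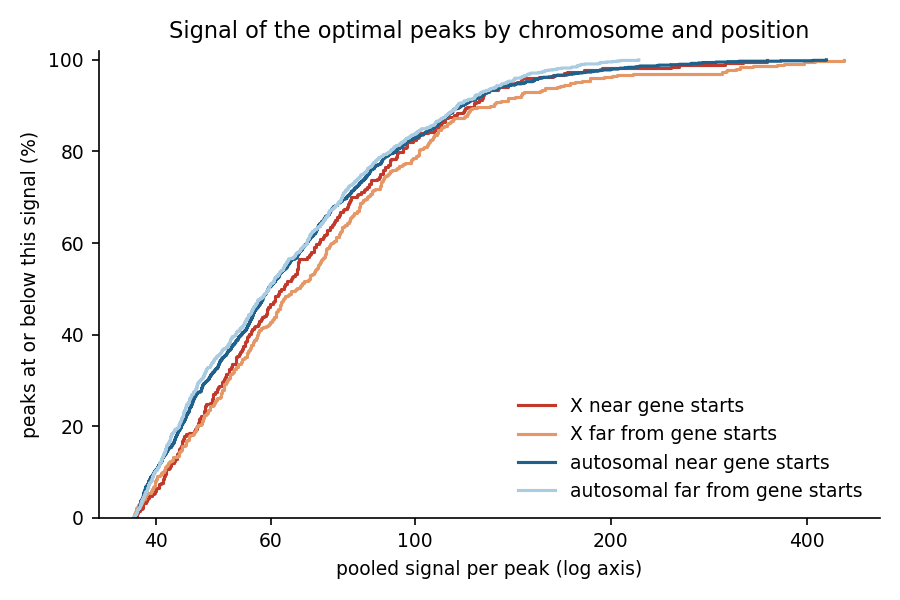
Cumulative share of peaks (percent) at or below each pooled signal (log axis) for the 274 members, the 370 other X peaks, and the 1053 autosomal peaks near and 905 far from gene starts. The curves run close together over most of their length, with medians of 62.6, 65.8, 59.5 and 59.7, and the curve of the X peaks far from gene starts reaches highest, to 457.

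At the limits of the choice the members grade into their neighbours. The lowest members were eor-2 with a signal of 37.4 (21.8 and 17.4 in the replicates) and F59C12.4 with 37.2 (11.4 and 23.2). The nearest X peaks below the limit of the reproducible set, by unc-97 and sma-9, had 36.97 and 36.9. At the upstream limit, cah-3 at 1981 bp and gyg-1 at 1956 bp were inside with signals of 47.5 and 64.5, whereas C53C7.3 at 2034 bp and hbl-1 at 2035 bp were outside with 119.3 and 62.1. At the downstream limit, F40B5.2 at 468 bp (69.3) and F35A5.8 at 500 bp (78.6) were inside, and F09B9.5 at 532 bp (52.8) and Y26E6A.2 at 561 bp (59.0) outside.

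Most members were found again among the highest peaks of each replicate. Of the 274, 210 (76.6%, interval 71.2 to 81.5%) overlapped by at least 1 bp one of the highest peaks of replicate 1 and also one of the highest of replicate 2, beside 72% of all peaks in the set. As many of the highest peaks were taken from each replicate list as the reproducible set holds. This share was 75.1% for the other X peaks and 71.3% for autosomal peaks near gene starts (interval 68.5 to 74.04%), whose interval overlaps that of the members. A further 28 members were in the top of replicate 1 alone, 33 in that of replicate 2 alone, and 3 in neither. Replicate and pooled lists share reads, since the authors pooled the same replicates.

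The signal of members was somewhat higher in replicate 1, with a median of 34.2 against 29.3 in replicate 2 and a median ratio of 1.11 over the 273 members with a peak in both lists. The whole set shared this, with medians of 33.3 and 29.3 and a median ratio of 1.14. Over these 273, Spearman's rho between the replicates was 0.617, beside 0.613 over 2591 peaks of the whole set; the points share their 2 libraries. The member without a counterpart was at ain-1, whose peak is only 118 bp wide; the nearest summit of replicate 1 lay 214 bp away with a signal of 59.1, and that of replicate 2 lay 3 bp away with 85.3. A second member at ain-1 lies 210 bp from it. In 14 members the overlapping replicate peak was also that of another peak of the set, among them the pairs at nspc-17, mdl-1, bet-2, T10B10.4, dgk-1 and F19C6.3, so their replicate values do not separate the neighbours.

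The members whose ranks differed most between replicates were all low in the pooled list. The largest gap was at pdi-6, a protein disulfide isomerase gene, which ranked 20735 with 8.98 in replicate 1 but 1237 with 30.1 in replicate 2. At hid-1, needed for dense-core vesicles, the signals were 9.18 and 28.6, at the nuclear hormone receptor gene nhr-32 they were 10.6 and 34.7, at F59C12.4 they were 11.4 and 23.2, and at the lysosomal membrane gene lmp-1 they were 12.7 and 31.1. All 5 were higher in replicate 2, and their pooled signals lay between 37.2 and 43.8.

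**Figure D3:**
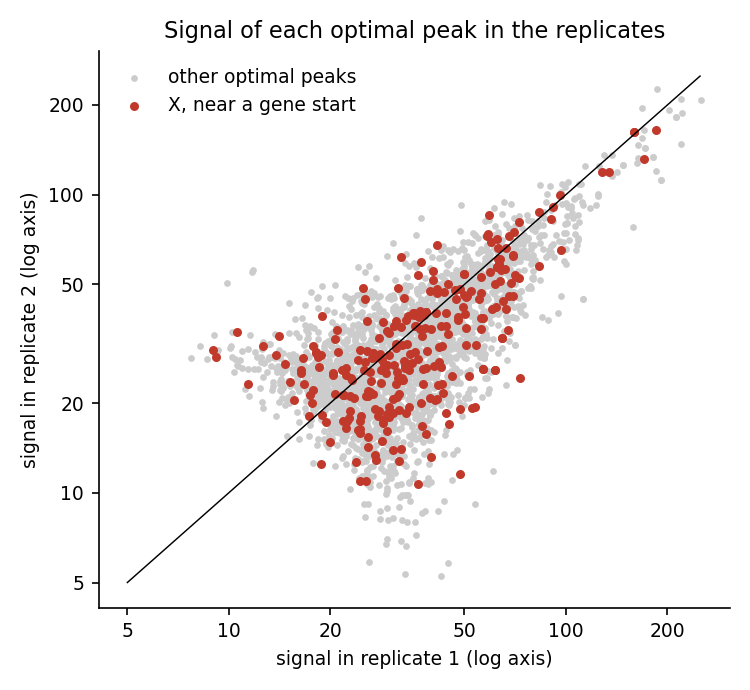
Signal in replicate 1 against signal in replicate 2 (both log axes) for the peaks of the reproducible set that overlap a peak of each replicate list, with 273 members in red and the others in grey; the line marks equal values. Members follow the cloud of the other peaks, tight at high signal and wide at low signal, where pdi-6 and hid-1 lie at 8.98 and 9.18 in replicate 1.

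Member summits lay farther upstream of gene starts than those of their autosomal counterparts. The median summit was 436 bp upstream of the nearest protein-coding gene start on X and 272 bp upstream on the autosomes. Of the 274, 252 (91.97%, interval 88.1 to 94.9%) had their summit upstream of that start, as had 91.8% of autosomal peaks near gene starts. The window that chose them reaches farther upstream than downstream, so most positions in it are upstream. Summits within 500 bp upstream numbered 127 (46.4%, interval 40.3 to 52.4%), against 57.8% on the autosomes (interval 54.8 to 60.8%), and the intervals do not overlap. In 101 bp tiles laid over the same windows of all genes, 21.8% of X tiles and 22.6% of autosomal tiles were within 500 bp upstream, so peaks of both groups were gathered there. Another 55 members lay 500 to 1000 bp upstream and 70 lay 1000 to 2000 bp upstream. The remaining 22 were at the start or downstream of it (8.03%), where 22.4% of X tiles lie, and the shares of autosomal peaks and tiles there were 8.17% and 24.98%.

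Signal changed little with distance. Members within 500 bp upstream had a median signal of 63.6, those 500 to 1000 bp upstream 66.2, those 1000 to 2000 bp upstream 59.0, and those at or downstream of the start 59.5. Summits in the windows of 2 or more genes were less common on X, with 31 members (11.3%, interval 7.82 to 15.7%) against 40.4% of autosomal peaks near gene starts. Tiles of the windows differed in the same direction, with 12.8% on X and 23.1% on the autosomes. The share of members was thus near that of X tiles, whereas autosomal peaks fell in several windows more often than autosomal tiles.

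**Figure D4:**
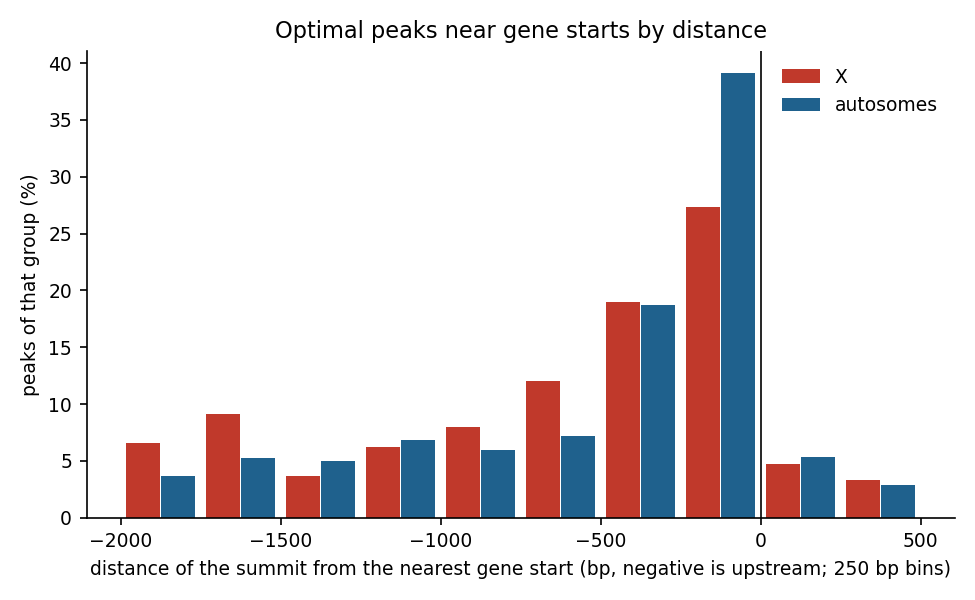
Share of peaks (percent of each group) by distance of the summit from the nearest protein-coding gene start, in 250 bp bins, negative values upstream, for the 274 members (red) and the 1053 autosomal peaks near gene starts (blue). The 250 bp just upstream hold 27.4% of the members and 39.1% of the autosomal peaks.

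By annotation, 247 member summits (90.1%) were intergenic with respect to protein-coding genes, 13 in introns, 12 in untranslated or other non-coding exon sequence and 2 in coding exons. Intergenic summits made up 83.2% of autosomal peaks near gene starts. They were 48.6% of the other X peaks and 64.5% of the whole set, which include peaks outside the window. The member summits in coding exons were at nlp-14, a neuropeptide-like gene, 441 bp downstream of its start (signal 41.02), and at mdl-1, 141 bp downstream (41.1). The gene mdl-1, which encodes a Mad-like bHLH repressor, carried 3 member peaks, with signals of 104.7, 60.9 and 41.1 at 72 bp upstream, 1580 bp upstream and 141 bp downstream. F19C6.3 also had 3, with 82.6, 43.1 and 40.02. Of the 277 X genes with a member, 250 had 1 peak, 25 had 2 and mdl-1 and F19C6.3 had 3. With X cut into 10 stretches of equal length, each held between 20 and 36 members.

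Members had tRNA genes beside them more often than autosomal peaks did. Of the 274, 22 (8.03%, interval 5.1001 to 11.9%) had a tRNA, snoRNA, snRNA or miRNA gene within 500 bp of the summit, beside 6.38% of the whole set. Of these, 20 had a tRNA gene (7.30%, interval 4.52 to 11.05%) against 13 of 1053 autosomal peaks near gene starts (1.23%, interval 0.659 to 2.102%). The other X peaks had a tRNA gene in 9.46%. X carries 276 of the 612 tRNA genes, and a tRNA gene lay within 500 bp of 1.48% of X tiles and 0.398% of autosomal tiles. In 12 of the 20 the summit was inside the tRNA gene itself.

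The highest members beside a small RNA gene were C28G1.2 with sec-15 (signal 127, with 58.5 and 72.7 in the replicates), M02F4.2 (120.1, with 66.1 and 56.2) and ets-5, an ETS transcription factor gene (97.4, with 55.8 and 38.6). Their tRNA genes were 51 bp, 19 bp and 0 bp from the summit. The single snoRNA neighbour was at sdha-1, a succinate dehydrogenase gene (68.9), and the single miRNA neighbour at tsp-6, a tetraspanin gene (56.1). The 22 members beside small RNA genes had a median signal of 52.7, and the 252 others 64.1. One peak inside a tRNA gene was counted for both nhr-255 and srg-64 because it falls in the window of each. For 87 members (31.8%, interval 26.3 to 37.6%) the closest annotated start of any kind was not protein-coding. Of these 87 starts, 66 were of genes annotated only as ncRNA. The share was 21.7% for autosomal peaks near gene starts, and 18.8% and 14.8% for X and autosomal tiles. It was 71.9% for the other X peaks and 43.4% for the whole set, which include peaks outside the window.

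The window of ets-5 is shown because its summit lies inside a tRNA gene; capitals mark the B box word GGTTCGA, a part of the internal tRNA promoter, on the minus strand. In M02F4.2 the capitals mark a forkhead word beside a tRNA gene, and in C05G5.2 the strict forkhead word of the highest member that holds it.
ets-5, chrX:5085628-5085728: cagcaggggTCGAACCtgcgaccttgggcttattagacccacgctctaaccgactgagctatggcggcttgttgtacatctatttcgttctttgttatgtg
M02F4.2, chrX:3036095-3036195: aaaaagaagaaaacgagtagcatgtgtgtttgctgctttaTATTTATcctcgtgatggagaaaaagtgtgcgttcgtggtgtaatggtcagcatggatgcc
C05G5.2, chrX:14747168-14747268: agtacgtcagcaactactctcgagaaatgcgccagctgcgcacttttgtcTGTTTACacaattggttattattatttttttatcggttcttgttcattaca

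The word searches compared the 101 bp summit windows with windows of the same length centred 300 bp to each side (548 flanks) and with 59512 tiles of all X gene windows; both strands were searched. The MEX core GCGCAGGG was in 5 member windows (1.82%, interval 0.595 to 4.21%), in none of the flanks (at most 0.671%, which overlaps the interval of the members) and in 24 of the X tiles (0.0403%). The other X peaks had it in 9 of 370 (2.43%). None of the 1053 autosomal peaks near gene starts held it, which allows a share of up to 0.350%, nor did any of the 905 others, whereas 0.0253% of autosomal tiles did. All 14 peaks of the set with this word were thus on X.

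The 3 highest members all held the MEX core, with the centre of the word 2.5 bp from the summit at F20B6.9, 4.5 bp at nspc-17 and 32.5 bp at ins-39. The median signal of the 5 holders was 300.05, against 62.6 for all members, and all 5 were in the top of both replicates, beside 76.6% of all members. High signal with the MEX core was not particular to members. The 9 other X peaks that held it ran from 39.6 to 457, the highest 4 of them from 312 to 457. Signal did not follow the word alone, since jkk-1 (35.6 and 29.6 in the replicates) and Y62H9A.9 (27.7 and 18.1) were below that median, and puf-9 reached 248 without it. A looser word, CGCAGGG, is part of every MEX core and was added after the data were seen. It was in 8 members (2.92%), 2 flanks and 0.176% of X tiles, in 11 of the 370 other X peaks (2.97%) and in 9 of the 1053 autosomal peaks near gene starts (0.855%).

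The word GCGAAGGG, seen in the printed lines, was in 4 members, no flank and 0.0605% of X tiles. Its holders were F20B6.9, nspc-17, fbxb-58 and C49F8.1, with signals of 347, 319, 254 and 38.1, and 4 of 1053 autosomal peaks near gene starts had it (0.380%). The other X peaks had it in 6 of 370 (1.62%), beside 1.46% of the members, and these include the highest peak of the set, with a signal of 457. Since the word was chosen from these members, their count is a description only. The highest 4 members each held this word, the MEX core or both, but the word was picked from these same lines, so no conclusion is drawn from this.

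Among other words found in promoters, CTGCGTCT and the tRNA B box were more common at the summits than beside them. CTGCGTCT was in 18 members (6.57%, interval 3.94 to 10.2%) against 2 flanks (0.365%, interval 0.0442 to 1.31%) and 0.381% of X tiles, and in 8.83% of autosomal peaks near gene starts. The other X peaks had it in 2.97%. The GA repeat GAGAGAGA was in 11 members (4.01%, interval 2.02 to 7.07%), 8 flanks (1.46%) and 0.637% of X tiles, and in 6.74% of autosomal peaks near gene starts. Of the other X peaks, 4.32% held it. Members with the GA repeat had a median signal of 93.5, and 11 of 11 were in the top of both replicates, beside 76.6% of all members. The lowest of these 11 had a signal of 63.6, and the replicate tops are themselves cut by signal. The highest was eef-1A.2. The GC box GGGCGG was in 15 members (5.47%) against 13 flanks (2.37%) and 1.43% of X tiles, and the E-box CACGTG in 8 members (2.92%) against 7 flanks (1.28%) and 1.34% of X tiles. The GC box and E-box were in 3.51% and 2.97% of the other X peaks, and in 6.65% and 1.99% of autosomal peaks near gene starts. The intervals of summits and flanks overlap for the GA repeat, the GC box and the E-box, and do not overlap for CTGCGTCT or the B box. The latter was in 11 members (4.01%, interval 2.02 to 7.07%), 2 flanks (0.365%, interval 0.0442 to 1.31%) and 0.620% of X tiles, and 9 of the 11 had a tRNA gene within 500 bp. The B box was also in 2.16% of the other X peaks and 0.855% of autosomal peaks near gene starts. Windows of the highest member with CTGCGTCT and with the GC box, which stands here on the minus strand, show where these words lie.
F17E5.2, chrX:12393952-12394052: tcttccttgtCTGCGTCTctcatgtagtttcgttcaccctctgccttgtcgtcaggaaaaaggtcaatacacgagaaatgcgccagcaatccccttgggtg
sms-2, chrX:949629-949729: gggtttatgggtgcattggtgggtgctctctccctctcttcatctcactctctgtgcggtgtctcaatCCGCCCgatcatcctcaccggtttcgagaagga

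Among members the wider forkhead word was in a smaller share of summits than of flanks, and the strict word in a larger share, with overlapping intervals for each. The word GTAAACA or its variants ATAAACA, the like word GTAAATA or its variant ATAAATA was in 16 members (5.84%, interval 3.37 to 9.31%), 60 flanks (10.9%, interval 8.46 to 13.9%) and 11.2% of X tiles, and in 4.94% of autosomal peaks near gene starts. The interval of the summits lies below the share of tiles. The other X peaks had the wider word in 4.32% of summits and 9.19% of flanks, and the whole set in 5.03% and 11.0%. The strict word TGTTTAC, the reverse complement of GTAAACA and so always part of the wider set, was in 8 members (2.92%, interval 1.27 to 5.67%), 9 flanks (1.64%, interval 0.754 to 3.09%) and 1.64% of X tiles. At autosomal peaks near gene starts the strict word was in 1.14% of summits and 1.66% of flanks. Over all peaks of the set these shares were 1.61% and 1.56%. Holders of a forkhead word were low in signal, with a median of 47.3, and 7 of the 16 were in the top of both replicates, beside 76.6% of all members. Other A- and T-rich words were less common at summits than in the flanks. The GATA word TGATAA was in 6 members (2.19%) against 43 flanks (7.85%) and the homeodomain word TAATTA in 3 (1.09%) against 32 (5.84%), with 10.5% and 5.37% of X tiles. For both of these words the intervals of summits and flanks do not overlap. The AP-1 word TGACTCA was in 2 members (0.730%) and 8 flanks (1.46%), with overlapping intervals. It was in 1.15% of X tiles and 1.11% of summits of the whole set.

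Base composition moved with these counts. G and C made up 47.9% of member summit windows on average, 34.2% of their flanks and 34.9% of X tiles, while the figures were 46.3% and 35.4% for summits and flanks of autosomal peaks near gene starts. The part of composition in the word counts was not tested.

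**Figure D5:**
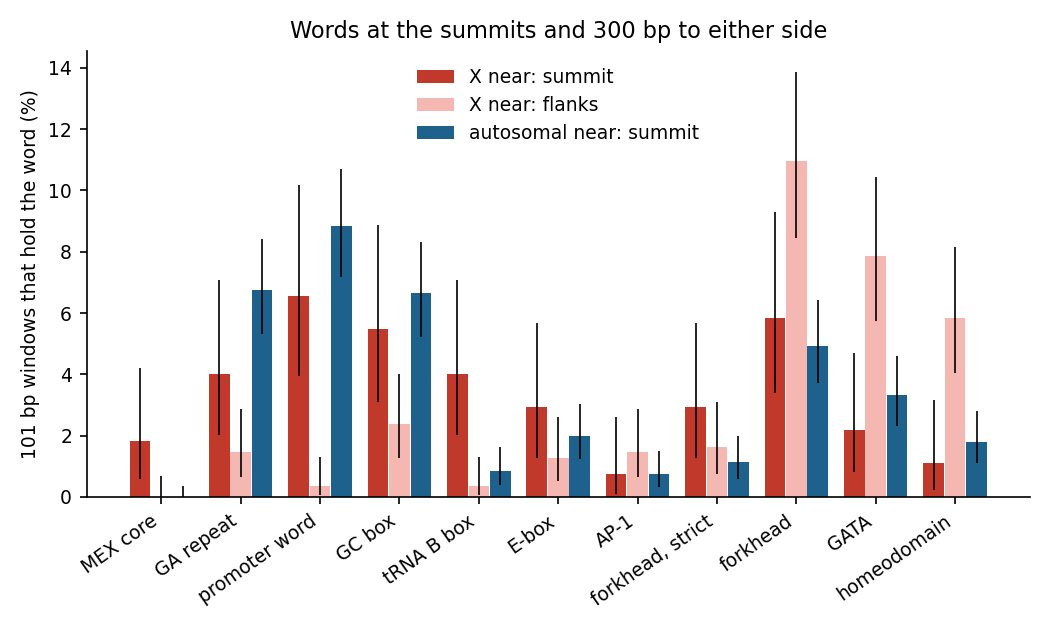
Share of 101 bp windows (percent) that hold each word on either strand, at the summits of the 274 members, in their 548 flanks and at the summits of the 1053 autosomal peaks near gene starts; bars start at 0 and lines are exact 95% intervals. The MEX core was found at member summits (1.82%) and in neither other group, the promoter word (CTGCGTCT) at 6.57% of summits against 0.365% of flanks, and the forkhead word at 5.84% against 10.9%.

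Of the 2731 protein-coding genes on X, 277 (10.1%, interval 9.04 to 11.3%) had at least 1 member in their window, beside 8.93% of protein-coding genes on all chromosomes and 8.73% of those on the autosomes. Gene groups are given by counts alone, against the 10.1% of all X genes, since the lists are short and were made with results of these data known. A peak near a start does not show that FKH-10 acts on that gene.

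Of all lists, that of synaptic vesicle release held the most X genes with a peak. Of 13 X genes for synaptic vesicle release, 8 had a peak (61.5%, interval 31.6 to 86.1%), beside 18 of 34 on the autosomes (52.9%, interval 35.1 to 70.2%). They were led by syd-2, which encodes liprin-alpha of the active zone, with a signal of 101.5 (67.1 in replicate 1 and 35.1 in replicate 2), 475 bp upstream. The RUN domain gene rund-1 had 92.04 (41.4 and 48.3), the neuroligin gene nlg-1 89.9 (55.9 and 35.5), and dgk-1, a diacylglycerol kinase gene of synaptic G protein signalling, 73.3 (56.8 and 25.9). The others were aex-3, sad-1, unc-18 and syg-1, with pooled signals between 47.7 and 59.2. Both X genes of neuropeptide processing, rund-1 and hid-1, had a peak (interval 15.8 to 100%), beside 7 of 14 on the autosomes. Of these, rund-1 is also in the synaptic list, and hid-1 had 9.18 in replicate 1 and 28.6 in replicate 2. Of X genes for neurotransmitters and their receptors, 2 of 17 had one (11.8%), gbb-1 (45.8) and dop-4 (38.1), beside 15 of 46 on the autosomes (32.6%). Voltage-gated and potassium channel genes had 1 of 11 on X (9.09%), slo-2 (54.2), and 8 of 24 on the autosomes (33.3%). Both X shares were near the 10.1% of all X genes. Among peptides and their receptors there were peaks at 3 of 32 FLP and NLP genes, led by nlp-76 (62.3), at 3 of 33 peptide receptor genes, led by npr-40 (100.98), and at 1 of 2 insulin-like peptide genes, ins-39. A tRNA gene lay 18 bp from the summit at nlp-76. The acr and lgc channel families had 1 of 24 (lgc-47), the twk channels 1 of 10 (twk-21, signal 42.2), the innexins 1 of 6 (unc-9, 79.2) and the degenerin channels 0 of 9. At twk-21 the summit was inside a tRNA gene.

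Among transcription factors, nuclear hormone receptor genes had peaks at 7 of 27 on X (25.9%, interval 11.1 to 46.3%) and at 4 of 247 on the autosomes (1.62%, interval 0.443 to 4.09%). The highest were nhr-14 with a signal of 114.8 (63.4 and 58.5 in the replicates), nhr-3 with 95.8 (56.6 and 38.7), nhr-48 with 91.4 (50.7 and 45.5) and nhr-1 with 81.7 (31.7 and 48.5). Of the remaining members, nhr-255 is the one that shares its peak, inside a tRNA gene, with srg-64. In the list of zinc finger, bHLH and other regulators of cell fate 4 of 18 had a peak, namely cebp-1, a bZIP gene (75.9), sox-2 (48.9), the heterochronic gene lin-14 (44.1) and the SMAD gene daf-3 (43.04). Homeodomain genes outside the ceh family had 0 of 9, the ceh family 1 of 18 and the forkhead family 1 of 4, fkh-9, with a signal of 55.6 (34.9 and 27.3) at 513 bp upstream.

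In the list for the X signal, sex determination and dosage compensation, 2 of 7 X genes had a peak (interval 3.67 to 71.0%) and 0 of 19 autosomal genes, which allows a share of up to 17.6%. They were ceh-39, a homeobox gene that takes part in counting X chromosomes, with 70.5 (37.4 and 33.5) at 256 bp upstream, and sdc-2, whose product brings the dosage compensation complex to X, with 53.02 (31.9 and 18.9) at 489 bp upstream. The summit windows of these genes did not hold the MEX core.

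Signalling genes had peaks at 3 of 12 in the insulin and TGF-beta list, led by akt-2, a kinase gene of the insulin pathway (78.96, with 53.6 and 19.4). There were 2 of 12 in the Ras and Notch list, gap-1, a Ras GTPase activator gene (89.2), and the FGF gene egl-17 (53.04). The summit at egl-17 was inside a tRNA gene. In the Wnt list 1 of 4 had a peak, the Ryk receptor gene lin-18 (109.6, with 65.2 and 43.999). Structural lists had 4 of 28 for basement membrane, adhesion and axon guidance, led by sdn-1, unc-115 (88.4), syg-1 (47.7) and mig-15 (47.6). The other structural counts were 2 of 16 for muscle structure, with troponin I gene tni-1 at 79.7, and 2 of 8 for cytoskeleton and motors, with spc-1 at 127. On the autosomes these lists had 6 of 38 and 21 of 60.

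Housekeeping lists are short on X. Peaks were found at 3 of 10 genes for the vacuolar ATPase and lysosome, led by the ATPase subunit genes vha-12 (101.7, with 60.3 and 41.5) and vha-15 (77.8, with 33.1 and 45.03). Chaperones and protein turnover had 2 of 6, with the endoplasmic reticulum chaperone gene hsp-3 at 109.9. The single peaks of other lists were at eef-1A.2 (translation, 1 of 3), rpl-11.2 (ribosomal proteins, 1 of 2, beside 56 of 79 on the autosomes), ain-1 (RNA metabolism, 1 of 7) and utx-1, a histone demethylase gene (chromatin and transcription, 1 of 10, signal 37.8). On the autosomes the counts were 17 of 42 for translation, 30 of 73 for RNA metabolism and 24 of 77 for chromatin and transcription. They were 5 of 30 for the vacuolar ATPase and lysosome and 19 of 75 for chaperones and protein turnover. Further lists with a single peak were the histones (his-24, a linker histone gene, 60.8), the nspc family (nspc-17, 1 of 19), the F-box genes (fbxb-58, 1 of 17) and detoxification genes (ugt-50, 1 of 14, signal 111). Chemoreceptor genes had peaks at 2 of 33, srd-43 (60.97) and srg-64 (52.3), each with its summit inside a tRNA gene. No member lay near any of 30 cuticle collagen genes, 10 hedgehog-related genes or 3 C-type lectin genes on X, which allows shares of up to 11.6%, 30.85% and 70.8%.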

How the data were processed

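FKH-10 ChIP-seq was measured in L1 larvae of 1 strain, with 2 biological replicates in 1 group. The authors deposited, on ce11, a peak list per replicate (28842 and 28896 peaks), a list from the pooled replicates (19924 peaks) and the reproducible peaks used here, which the authors call optimal by irreproducible discovery rate (IDR). Per the deposited text files of each sample, these lists derive from alignments and a control file. The signal value per peak is the deposited one. The optimal peaks start at a signal of 37.02. Aligner, peak caller, IDR threshold and the scale of the signal: not given in the sources used here. Read depth is unknown. Lists on ce10 were not used, and the possible control experiment named in the labels was not analysed here.

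Positions are 1-based on ce11. Gene starts came from Ensembl release 115 (WBcel235) and sequences from RefSeq. Distances were taken from summits to gene starts, so a peak within range of several genes was counted for each gene. A replicate's value for a member is that of the highest of its peaks that overlap the member. Words were searched on both strands. Computation used Python 3.11.15, pandas 2.3.3, numpy 2.4.6, scipy 1.17.1 and matplotlib 3.10.9, and the search and overlap code was tested on simulated data.

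No hypothesis test was made, because there is no second condition and peaks are not replicates. Shares have exact 95% binomial (Clopper-Pearson) intervals, which cover counting error only and treat peaks as independent, although neighbouring peaks can share reads. Members, the 38 gene lists and the words were chosen with earlier results of these data known, and 20 listed symbols matched no gene of the annotation. Genes were named by rule: the 25 highest members, the 5 with the largest difference in replicate ranks, genes with 3 or more members, the leading X genes of each list (up to 4), the peaks nearest each limit, the 2 lowest members and the 3 highest beside a small RNA gene. Genes beyond this rule were named after their values were seen, and include the holders of the MEX core and GCGAAGGG words, the members of short lists, the pairs that share a replicate peak, and the single snoRNA and miRNA neighbours. Alternatives changed the window, the peak list, the overlap rule, the small RNA distance and the word window.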

Additional observations from a re-analysis of the deposited data

How the results depend on the processing

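Of 97 alternatives over 19 results, 74 stayed within 1.5 times a count or within the 95% interval of a share or median. The number of members was 149 with a window of 500 bp to either side and 145 among the peaks of the set above its median signal, called higher-signal peaks below. The share of X peaks near a gene start was 30.1% with a window of 1000 bp upstream to 200 bp downstream, 23.1% with 500 bp to either side and 62.3% with 5000 bp upstream to 500 bp downstream. The share in the top of both replicates was 39.4% with 0.5 times as many of the highest peaks per replicate and 94.9% with the 5000 highest. The share of X genes with a member was 7.18% with the 1000 bp window and 5.60% in the higher-signal peaks. Median GC content (48.5%) was 46.8% with 100 bp to each side. Reaching 25 bp to each side, the words were in 1.82% (GA repeat), 1.09% (E-box), 0 (homeodomain), 3.65% (CTGCGTCT) and 1.46% (GC box) of members. Reaching 100 bp, they were in 9.85% (forkhead), 8.39% (GA repeat), 5.84% (E-box), 5.47% (GATA) and 7.30% (B box). In the higher-signal peaks the forkhead word was in 1.38%, the strict one in 0.690% and the GA repeat in 7.59%. The longer or shorter word window holds more or fewer letters. A wider or narrower distance window, or a longer or shorter list, takes in more or fewer peaks. The same 11 members held the GA repeat in the higher-signal peaks, as 11 of 145 rather than 11 of 274. The cause of the remaining moves was not tested.

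With the top peaks of 1 replicate alone the number of members was 276 to 278, the share near a gene start 41.6 to 43.3%, the share upstream 90.6 to 93.8%, the share beside small RNA genes 7.19 to 7.25% and the share of X genes 10.29 to 10.3%. The words then ranged as follows: MEX core 1.09 to 1.80%, CTGCGTCT 5.76 to 5.80%, GA repeat 3.62 to 5.40%, GC box 4.68 to 8.70%, B box 4.35 to 4.68%, E-box 2.88 to 3.26%, AP-1 0.719 to 1.09%, forkhead 4.32 to 5.80%, strict forkhead 1.81 to 2.88%, GATA 2.90 to 3.60% and homeodomain 0.725 to 1.44%. The MEX core count was 3 with the top peaks of replicate 2 alone and 5 with those of replicate 1. No paired analysis was possible because there is only 1 group. Read depth is not known, so what it limits cannot be given.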
